A study of Mus musculus with 62 samples.

Results

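Transcripts of 10 genes of the glucocorticoid axis were followed in 3 tissues of female mice given polychlorinated biphenyls (PCBs). They are the receptor genes Nr3c1 and Nr3c2 and the response genes Fkbp5, Sgk1, Tsc22d3, Cdkn1a, Mt1, Mt2, Plin4 and Zbtb16. They were taken by Entrez gene identifier from the count tables of liver, prefrontal cortex and striatum, which together list 18821 genes. All 10 were listed and passed the filter on low counts in each tissue. The mice were C57BL/6 females that swallowed the MARBLES mixture of PCBs at 0.1, 1 or 6 mg/kg, or vehicle (0 mg/kg). In order of rising dose, from vehicle up, there were 4, 5, 6 and 6 libraries for either brain region and 4, 4, 6 and 6 for the liver. Brain tissue was taken as punches. The age of the mice, the length of dosing and the hour of collection are not given in the sources used here. The comparisons ask whether the genes differed from vehicle at each dose, whether their levels differed between tissues, and whether a mouse that was high in a tissue was high in the others.

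Glucocorticoids are adrenal steroid hormones that rise with stress and with the daily rhythm. They enter cells and bind the glucocorticoid receptor, encoded by Nr3c1, and the mineralocorticoid receptor, encoded by Nr3c2, which has the higher affinity and is best known in brain for its expression in hippocampal neurons. The bound receptor moves to the nucleus and binds glucocorticoid response elements, palindromic DNA sites near target genes. The 8 response genes are known to be induced by glucocorticoids in liver, brain or both, although other signals act on several of them, such as zinc on the metallothioneins and p53 on Cdkn1a.

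On the mouse assembly GRCm38.p6 the genes lie on several chromosomes, given with their Entrez identifiers. Nr3c2 (110784) is at chr8:76898083-77245012, on the same chromosome as Mt2 (17750) at chr8:94172618-94173567 and Mt1 (17748) at chr8:94178883-94180327. Zbtb16 (235320) is at chr9:48651797-48836225 and Sgk1 (20393) at chr10:21882184-21999903. Chromosome 17 holds Fkbp5 (14229) at chr17:28398753-28486149, Cdkn1a (12575) at chr17:29090979-29100722 and Plin4 (57435) at chr17:56100587-56109948. Tsc22d3 (14605) is at chrX:140539528-140600522, and Nr3c1 has the identifier 14815. Values are sums over each whole gene and do not separate its exons or transcripts.

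Library totals ranged from 7381179 to 10203247 counts for the 20 livers, from 8722232 to 12135200 for the 21 prefrontal cortices and from 8283032 to 12019651 for the 21 striata. Striatal totals of 10147296 to 10459212 in vehicle did not overlap those of 8553800 to 9197051 at 6 mg/kg. Levels are given as CPM, counts scaled to a common library size. Hepatocyte markers summed to between 77290 and 173000 CPM in the liver. Markers of striatal projection neurons summed to between 3150 and 7587 CPM in the striatum and between 1136 and 3617 CPM in the prefrontal cortex, ranges that overlap. Markers of cortical projection neurons summed to between 1521 and 2594 CPM in the prefrontal cortex and between 126 and 1796 CPM in the striatum, so their level differed widely between striatal punches. Oligodendrocyte markers in the striatum summed to between 4445 and 6712 CPM in vehicle and between 6688 and 9379 CPM at 6 mg/kg. In the liver, the difference of log2 CPM between the clock genes Dbp and Arntl was 2.05 to 5.45 in vehicle and 6.58 to 8.48 at 6 mg/kg, and it was above the vehicle range in all dosed livers. In such bulk samples, fewer cells of a type and less RNA per cell cannot be told apart. No source says whether libraries of a group came from separate litters or cages, so p-values measure the spread between these samples.

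Promoter sequences are shown for Sgk1 and Mt2, since Sgk1 was the gene whose level followed the mouse across brain regions and Mt2 moved with Mt1 in the liver. Both are the 250 bases before an annotated start site on the plus strand, from RefSeq on GRCm38.p6, printed 5′ to 3′. The Sgk1 sequence lies at chr10:21993640-21993889, before 1 of several start sites of the gene. Its capitals mark the full glucocorticoid response element pattern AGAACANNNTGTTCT, whose first base is at -189 from the start site.
Sgk1: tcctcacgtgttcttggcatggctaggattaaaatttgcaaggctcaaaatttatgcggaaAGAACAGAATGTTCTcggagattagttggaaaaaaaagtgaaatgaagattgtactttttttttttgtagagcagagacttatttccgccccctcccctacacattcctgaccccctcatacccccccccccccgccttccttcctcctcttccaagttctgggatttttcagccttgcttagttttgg
The Mt2 sequence lies at chr8:94172368-94172617, and its capitals mark 3 matches to the core of the metal response element, TGCGCNC or TGCACNC on either strand, starting at -223, -128 and -50.
Mt2: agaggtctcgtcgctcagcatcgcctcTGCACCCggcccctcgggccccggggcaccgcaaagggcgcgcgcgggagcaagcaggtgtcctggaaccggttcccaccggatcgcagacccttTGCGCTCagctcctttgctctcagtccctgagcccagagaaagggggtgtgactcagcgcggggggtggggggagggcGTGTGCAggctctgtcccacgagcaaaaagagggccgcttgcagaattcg
The full glucocorticoid pattern, which reads the same on both strands, was found in 3 of 32851 promoters of the same length, or 0.00913%. Those of Acnat2 and Gm35041 were the others. The AGAACA part alone, on either strand, was in 16.1% of promoters, so it is common by itself. The metal pattern was in 21.4% of promoters at least once and in 5.17% at least 2 times. The Mt1 window, at chr8:94178839-94179088, lies mostly inside the gene, whose first base is 94178883. It had 1 metal match at -23, which is not a count for the region before the gene. The Nr3c2 window also lies inside its gene and had 1 match at -29. Promoter entries for Nr3c1 and Zbtb16 were not used here. A match is a description of letters and not evidence of binding.

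The metallothionein transcripts were the most abundant of the 10 per length in each tissue, and the order of the rest depended on the tissue. Levels between genes are given as mean CPM per kilobase of the longest transcript. CPM was scaled within each tissue, so these values compare genes in a tissue and not a gene between tissues. Tissues are compared below after joint scaling. In the liver, Mt1 was at 187 CPM per kb and Mt2 at 91.7, followed by Tsc22d3 at 38.6, Fkbp5 at 15.4, Sgk1 at 9.21 and Nr3c1 at 7.36. Nr3c2, Zbtb16, Cdkn1a and Plin4 lay between 1.03 and 1.39 CPM per kb there. In the prefrontal cortex, Mt1 was at 151 and Mt2 at 131 CPM per kb, followed by Sgk1 at 24.6, Tsc22d3 at 22.9, Nr3c1 at 16.3, Cdkn1a at 12.7, Fkbp5 at 11 and Nr3c2 at 6.78. The striatum held Mt1 at 204, Mt2 at 154 and Sgk1 at 36.2 CPM per kb, ahead of Tsc22d3 at 26.7 and Nr3c1 at 13.3. Plin4 was the lowest in both brain regions, at 0.657 CPM per kb in prefrontal cortex and 1.30 in striatum. Mt1 and Mt2 are closely related neighbours, and the noncoding gene Gm45774 overlaps Mt2 on the other strand in GENCODE vM21. How the authors' counting shared such reads, and whether it used strand, is not given in the sources used here, so the split between Mt1 and Mt2 is uncertain.

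Spread between mice also differed by gene and tissue. Over all 20 livers, the coefficient of variation of CPM was 21.2% for Nr3c1 and 26.6% for Nr3c2, against 76.9% for Mt1, 87.1% for Plin4 and 96.9% for Mt2. Prefrontal values were 14.4% for Nr3c1, 14.3% for Nr3c2 and 84.7% for Plin4. In the striatum it was 15.2% for Nr3c1, 15.1% for Mt1, 47.0% for Sgk1 and 64.9% for Plin4. The receptors therefore varied less than most of the response genes, and the metallothioneins varied more in the liver than in the brain. Counts behind the low genes were small. The fewest counts in a liver library were 4 for Cdkn1a, 4 for Plin4 and 5 for Zbtb16, so counting error is large for those values.

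**Figure D1:**
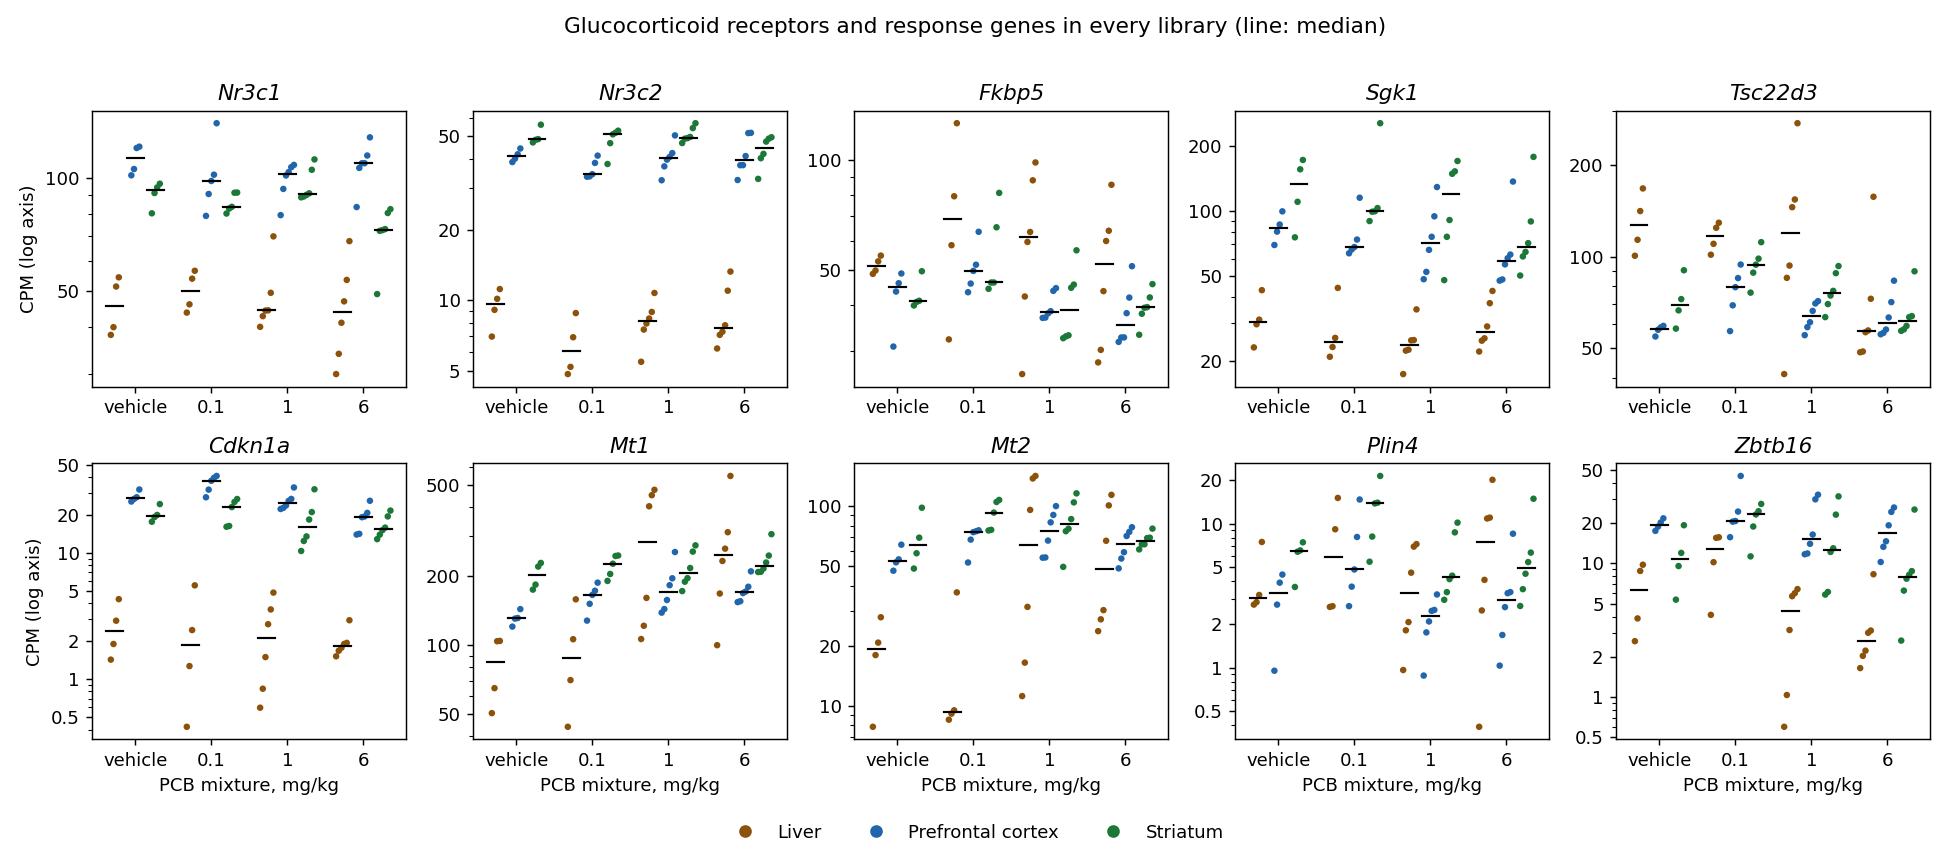
CPM of each gene (log axis) in every library by dose group, with liver in brown, prefrontal cortex in blue and striatum in green, and a black line at the group median. Cdkn1a and Nr3c2 are lower in liver than in brain at each dose, while the liver points of Plin4, Zbtb16 and Mt2 spread the most, with a highest value 52, 26.0 and 18.1 times the lowest. CPM is scaled within each tissue, so heights of different tissues are not on a common scale.

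Tissue differences were tested over all mice with the dose group as a term, on libraries of 2 tissues scaled together. In the striatum against the prefrontal cortex, 7 of the 10 genes passed (edgeR's quasi-likelihood test, Benjamini-Hochberg adjusted p under 0.05), where 55.9% of all tested genes did. Nr3c1 was lower in the striatum by a log2 difference of -0.38 (SE 0.0653, adjusted p = 2.89e-06), and Nr3c2 was higher by 0.18 (SE 0.0592, adjusted p = 0.00991). Among response genes, Sgk1, a kinase that regulates ion transport, was higher in the striatum by 0.47, Mt1 by 0.36 and Plin4 by 0.95. Cdkn1a was lower there by a log2 difference of -0.55 and Zbtb16 by -0.62. Fkbp5, Tsc22d3 and Mt2 differed by -0.01, 0.13 and 0.15 and did not pass. With the animal number as a block, Tsc22d3 passed as well, at 0.13 (adjusted p = 0.0285), and 8212 genes in all passed in place of 8112. In vehicle mice alone 3 of the 10 passed, Nr3c1, Cdkn1a and Mt1, and 3229 genes in all.

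In the liver, 8 of the 10 differed from the prefrontal cortex and 8 from the striatum, where 91.9% and 91.6% of all tested genes did, shares close to theirs. Fkbp5 and Tsc22d3 were higher in the liver than in the prefrontal cortex by log2 differences of 1.57 (SE 0.136) and 1.79 (SE 0.153), or 2.96 and 3.46 times. Nr3c2 was lower in the liver by -1.23 (SE 0.0912) and Cdkn1a by -2.42 (SE 0.176), a level 5.36 times higher in the prefrontal cortex. Sgk1 was lower in the liver by -0.35 against the prefrontal cortex and by -0.82 against the striatum, and Plin4, a protein that coats lipid droplets, was higher in it by 1.79 and 0.82. Zbtb16 was lower in the liver than in the prefrontal cortex by -0.85 and differed from the striatum by -0.24, which did not pass. Differences for Nr3c1 depended on the scaling. Liver minus prefrontal cortex was -0.08 for it, not passing, and liver minus striatum was 0.30, passing, while median-ratio size factors shifted both liver comparisons by about -0.21 and gave -0.29 (adjusted p = 0.00161) and 0.09 (adjusted p = 0.294). That scaling also moved Plin4 in liver against striatum to 0.61 (adjusted p = 0.0504). Mt1 was higher in the liver by 1.16 against the prefrontal cortex and 0.80 against the striatum over all mice. In vehicle mice alone these were 0.23 (adjusted p = 0.301) and -0.32 (adjusted p = 0.182), so the difference did not pass in them. Mt2 differed by 0.30 and 0.16, not passing, and by -0.89 (adjusted p = 0.0335) between liver and striatum in vehicle mice alone.

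Neither receptor passed at any dose in any tissue. Nr3c1 in the liver was at 38.2, 40.0, 51.3 and 54.3 CPM in vehicle, and at 6 mg/kg it had a minimum of 30.01, a median of 44.0 and a maximum of 67.8 CPM. The ranges overlapped, and the log2 difference was -0.01 (SE 0.203, edgeR adjusted p = 0.978). Prefrontal Nr3c1 was at 102, 106, 120 and 121 CPM in vehicle and between 83.6 and 128 CPM at 6 mg/kg, with a median of 109. Again the vehicle values lay inside the dosed range, with a log2 difference of -0.05 (SE 0.126, edgeR adjusted p = 0.942).

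In the striatum, Nr3c1 was at 80.4, 91.1, 94.2 and 96.4 CPM in vehicle. At 6 mg/kg it had a minimum of 49.0, a median of 72.8 and a maximum of 82.5 CPM, so only animals 52 and 58, at 82.5 and 80.6, reached the vehicle range. The log2 difference was -0.34 (SE 0.111), which did not pass (edgeR adjusted p = 0.208). The lowest library, of animal 54, was apart from the others, and without it the difference was -0.25. After an offset for transcript GC content and length it was -0.14 (adjusted p = 0.530). Nr3c2 in the striatum was at 47.1, 48.3, 48.7 and 56.1 CPM in vehicle and between 32.9 and 49.5 CPM at 6 mg/kg, with a median of 44.8. Its log2 difference was -0.20 (SE 0.110, edgeR adjusted p = 0.371), or -0.13 without animal 54. Total counts and oligodendrocyte markers also moved with 6 mg/kg in this tissue, and their part in these values was not tested. Nr3c2 in the liver was at 6.98, 9.08, 10.1 and 11.1 CPM in vehicle and at 4.83, 5.18, 6.93 and 8.79 CPM at 0.1 mg/kg, with a log2 difference of -0.54 (SE 0.262, edgeR adjusted p = 0.994). The Nr3c2 difference at 6 mg/kg was -0.09 in the liver and 0.02 in the prefrontal cortex.

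Fkbp5 encodes a co-chaperone that lowers the hormone affinity of the glucocorticoid receptor and so acts in negative feedback. Its 4 vehicle livers were close together, at 48.8, 49.8, 52.8 and 54.7 CPM. Dosed livers spread to both sides of them, from 32.3 to 126 CPM at 0.1 mg/kg, from 26.0 to 98.3 at 1 mg/kg and from 27.9 to 85.5 at 6 mg/kg. The standard deviation was 2.72 CPM in vehicle and 39.6, 27.1 and 22.1 CPM at the rising doses, while the log2 difference at 6 mg/kg was 0.01 (SE 0.363, edgeR adjusted p = 0.989). Prefrontal Fkbp5 was at 30.9, 43.6, 45.99 and 48.9 CPM in vehicle and at 31.8 to 51.2 CPM at 6 mg/kg, with a log2 difference of -0.15 (SE 0.137). In the striatum it was at 40.0, 40.9, 41.2 and 49.6 CPM in vehicle and at 44.4, 46.2, 46.2, 65.4 and 81.2 CPM at 0.1 mg/kg. That difference was 0.40 (SE 0.174, edgeR adjusted p = 1), with animals 24 and 29 above the rest, and it was 0.24 without animal 29.

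Tsc22d3 encodes GILZ, a leucine zipper protein that carries part of the anti-inflammatory action of glucocorticoids. In the liver it was at 101, 114, 141 and 167 CPM in vehicle. At 6 mg/kg it was at 48.5, 48.8, 56.5, 57.2, 72.7 and 157 CPM. In 5 of the 6 dosed mice the level was below every vehicle mouse, and in animal 53 it was inside the vehicle range. The log2 difference was -0.83 (SE 0.378, edgeR adjusted p = 0.183), and without animal 53 it was -1.20 (adjusted p = 0.0660), so it did not pass either way. At 1 mg/kg Tsc22d3 in the liver ranged from 41.2 to 274 CPM around a median of 119, and the difference from vehicle was 0.02. Prefrontal Tsc22d3 was at 54.7, 57.5, 58.5 and 59.2 CPM in vehicle and at 56.9, 69.2, 79.4, 85.0 and 94.2 CPM at 0.1 mg/kg. In 4 of these 5 mice it was above every vehicle mouse, with a log2 difference of 0.42 (SE 0.129, edgeR adjusted p = 0.742). In the striatum it was at 58.03, 66.6, 72.5 and 90.2 CPM in vehicle and between 76.2 and 112 CPM at 0.1 mg/kg, with a difference of 0.38 (SE 0.145, edgeR adjusted p = 1). The prefrontal and striatal differences at 6 mg/kg were 0.16 and -0.14.

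Sgk1 spread widely between mice given the same dose. Prefrontal Sgk1 was at 69.3, 80.0, 86.3 and 99.4 CPM in vehicle and at 47.4, 48.01, 56.4, 60.2, 62.6 and 137 CPM at 6 mg/kg. All but 1 of the dosed mice were below the vehicle range, and animal 53 was above it. The log2 difference was -0.29 (SE 0.283, edgeR adjusted p = 0.795), and without animal 53 it was -0.60 (adjusted p = 0.367). In the striatum Sgk1 was at 75.3, 110, 156 and 172 CPM in vehicle and at 50.05, 61.4, 64.4, 70.8, 89.2 and 178 CPM at 6 mg/kg. Animal 53 was again the highest, and the difference was -0.58 (SE 0.404, edgeR adjusted p = 0.479), or -0.93 without it (adjusted p = 0.233). At 0.1 mg/kg a single mouse, animal 24, was at 115 CPM in the prefrontal cortex against 63.5 to 73.5 in the others, and at 255 CPM in the striatum against 89.6 to 103. In the liver Sgk1 was at 23.2 to 42.8 CPM in vehicle and 22.2 to 42.5 CPM at 6 mg/kg, with a difference of -0.07 (SE 0.231).

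Cdkn1a encodes p21, an inhibitor of cyclin-dependent kinases induced by p53 and by glucocorticoids. Prefrontal Cdkn1a was at 25.5, 26.7, 27.6 and 31.7 CPM in vehicle and at 13.96, 14.2, 19.1, 19.4, 20.7 and 25.8 CPM at 6 mg/kg. The groups overlapped only through animal 54, the highest at 6 mg/kg, and the lowest vehicle mouse. The log2 difference was -0.56 (SE 0.150), which did not pass after adjustment over 14838 genes (edgeR adjusted p = 0.254). Without animal 54 it was -0.67 (adjusted p = 0.0860). Cdkn1a at 0.1 mg/kg was at 27.5, 31.7, 37.2, 39.3 and 40.6 CPM, a log2 difference from vehicle of 0.34 (SE 0.154, edgeR adjusted p = 0.742). Its slope over dose rank (vehicle and the 3 doses as equal steps) was -0.24 per step (SE 0.0614, edgeR adjusted p = 0.154). With 1 surrogate variable in the fit, Cdkn1a at 6 mg/kg passed against vehicle. DESeq2's slope and a slope over mg/kg passed too, each fit calling more genes in all, as given below. Tested against 0.1 mg/kg in place of vehicle, 6 mg/kg was lower by a log2 difference of -0.91 (adjusted p = 0.00649), where 16 genes in all passed against 0 from vehicle. In the striatum Cdkn1a was at 17.6 to 24.3 CPM in vehicle and 12.8 to 21.6 CPM at 6 mg/kg, a difference of -0.30 (SE 0.237). In the liver it was at most 5.53 CPM in any library.

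Plin4 had few counts in each tissue, from 4 to 252 per library, and Zbtb16 had 5 to 160 in the liver, 109 to 455 in the prefrontal cortex and 23 to 359 in the striatum. Zbtb16 encodes a zinc finger transcription factor, PLZF, and in the liver it was at 2.62, 3.87, 8.76 and 9.75 CPM in vehicle, and between 1.65 and 8.28 CPM at 6 mg/kg with a median of 2.63. Its slope over dose rank in the liver was -0.48 per step (SE 0.204, edgeR adjusted p = 0.143), with the highest values at 0.1 mg/kg, from 4.12 to 15.6 CPM. Plin4 at 0.1 mg/kg was at 2.67, 3.65, 4.803, 8.08 and 14.7 CPM in the prefrontal cortex, against 0.951, 2.74, 3.89 and 4.43 in vehicle. In the striatum it was at 5.44, 8.13, 13.8, 13.98 and 21.4 CPM at that dose, against 3.63, 6.38, 6.52 and 7.42 in vehicle. The log2 differences were 1.19 (SE 0.519, edgeR adjusted p = 0.742) and 1.07 (SE 0.457, edgeR adjusted p = 1). Without animal 29 they were 0.69 and 0.79. Animals 24 and 29 were the highest of the group in both brain regions, and the groups overlapped. Plin4 in the liver ranged from 0.388 to 20.2 CPM at 6 mg/kg, with animal 56 the lowest and animal 53 the highest.

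The metallothioneins Mt1 and Mt2 are small cysteine-rich proteins that bind zinc and copper, and Mt1 in the liver was the gene of the 10 that passed over dose rank by edgeR. DESeq2's Wald test of that slope also called Mt2 in the liver (0.72, adjusted p = 0.0317) and Cdkn1a in the prefrontal cortex (adjusted p = 0.0208), where it called 1228 genes in all in the liver against 624 by edgeR, and 65 in the prefrontal cortex against 3. In the liver Mt1 was at 50.4, 64.8, 104 and 104 CPM in vehicle and at 43.9, 70.3, 106 and 159 CPM at 0.1 mg/kg. At 1 mg/kg it was at 106, 122, 161, 405, 453 and 478 CPM. At 6 mg/kg it was at 99.9, 168, 233, 264, 312 and 550 CPM. All 6 mice at 1 mg/kg were above the vehicle range, which 0.848% of tested liver genes also showed in that direction, and 5 of 6 at 6 mg/kg were above it. The log2 difference from vehicle was 1.83 at 1 mg/kg (SE 0.510, edgeR adjusted p = 0.437) and 1.75 at 6 mg/kg (SE 0.508, edgeR adjusted p = 0.0633). Over dose rank Mt1 rose by 0.68 per step (SE 0.177, edgeR adjusted p = 0.0354). The trend passed for 1 of the 10 genes, where 4.81% of all tested liver genes passed in either direction and 2.85% as higher, a total of 624 genes that ran from 79 (without animal 58) to 1317 (without animal 56) when 1 library was left out. It kept its call in 12 of 20 fits that left out 1 library, and lost it without any of vehicle animals 3, 4, 7 and 8, animal 28 at 0.1 mg/kg or animals 52, 53 and 58 at 6 mg/kg, at adjusted p from 0.0511 to 0.0872. The Dbp and Arntl difference was above the vehicle range at each dose, 0.1 mg/kg included (6.17 to 7.98), where the Mt1 difference from vehicle was 0.23 and ran from -0.14 (without animal 29) to 0.47 (without animal 25). With it as a covariate the Mt1 slope was 0.71 (adjusted p = 0.455), and 3 genes in all passed in place of 624. Macrophage markers (6 genes, with C1qa and Csf1r the most abundant) also moved with dose in the liver. They summed to between 70.3 and 88.9 CPM in vehicle and, by rising dose, to between 105 and 133, between 76.4 and 165 and between 92.3 and 171 CPM. Livers at 0.1 and 6 mg/kg were thus all above the vehicle range. Their part in the Mt1 values was not tested.

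Mt2 in the liver was at 7.84, 17.9, 20.7 and 27.8 CPM in vehicle. It had a median of 63.7 and a maximum of 142 CPM at 1 mg/kg, and a median of 48.7 and a maximum of 114 CPM at 6 mg/kg. In 4 of 6 livers at 1 mg/kg and 4 of 6 at 6 mg/kg the level was above the vehicle range. The differences were 1.96 (SE 0.734, edgeR adjusted p = 0.550) and 1.71 (SE 0.726, edgeR adjusted p = 0.161), and the slope was 0.72 per step (SE 0.257, edgeR adjusted p = 0.0957). At 1 mg/kg animals 45, 48 and 50 were the highest 3 for both metallothioneins, at 95.98 CPM or more for Mt2 and 405 or more for Mt1.

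In the prefrontal cortex Mt1 was at 120, 131, 131 and 144 CPM in vehicle and at 154, 156, 169, 172, 180 and 210 CPM at 6 mg/kg. The groups did not overlap, which 1.19% of tested genes there also showed in the higher direction. The log2 difference was 0.40 (SE 0.137), not passing (edgeR adjusted p = 0.382). It was 0.44 at 1 mg/kg (SE 0.137) and 0.29 at 0.1 mg/kg (SE 0.141), comparisons that share the vehicle mice. The genes whose level followed Mt1 most closely over the 21 libraries were Rplp1, Atp5e and Rps19, short transcripts that encode ribosomal or mitochondrial proteins, at r of 0.902, 0.890 and 0.888. These 3 were looked up after values were seen, and after an offset for transcript GC content and length the difference at 6 mg/kg was 0.32. Mt2 there differed by 0.46 at 1 mg/kg (SE 0.163, edgeR adjusted p = 0.588) and 0.24 at 6 mg/kg. In the striatum Mt1 was at 175 to 229 CPM in vehicle and 209 to 306 CPM at 6 mg/kg, a difference of 0.22 (SE 0.133) that was 0.14 without animal 54, and Mt2 differed by -0.02 (SE 0.189).

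**Figure D2:**
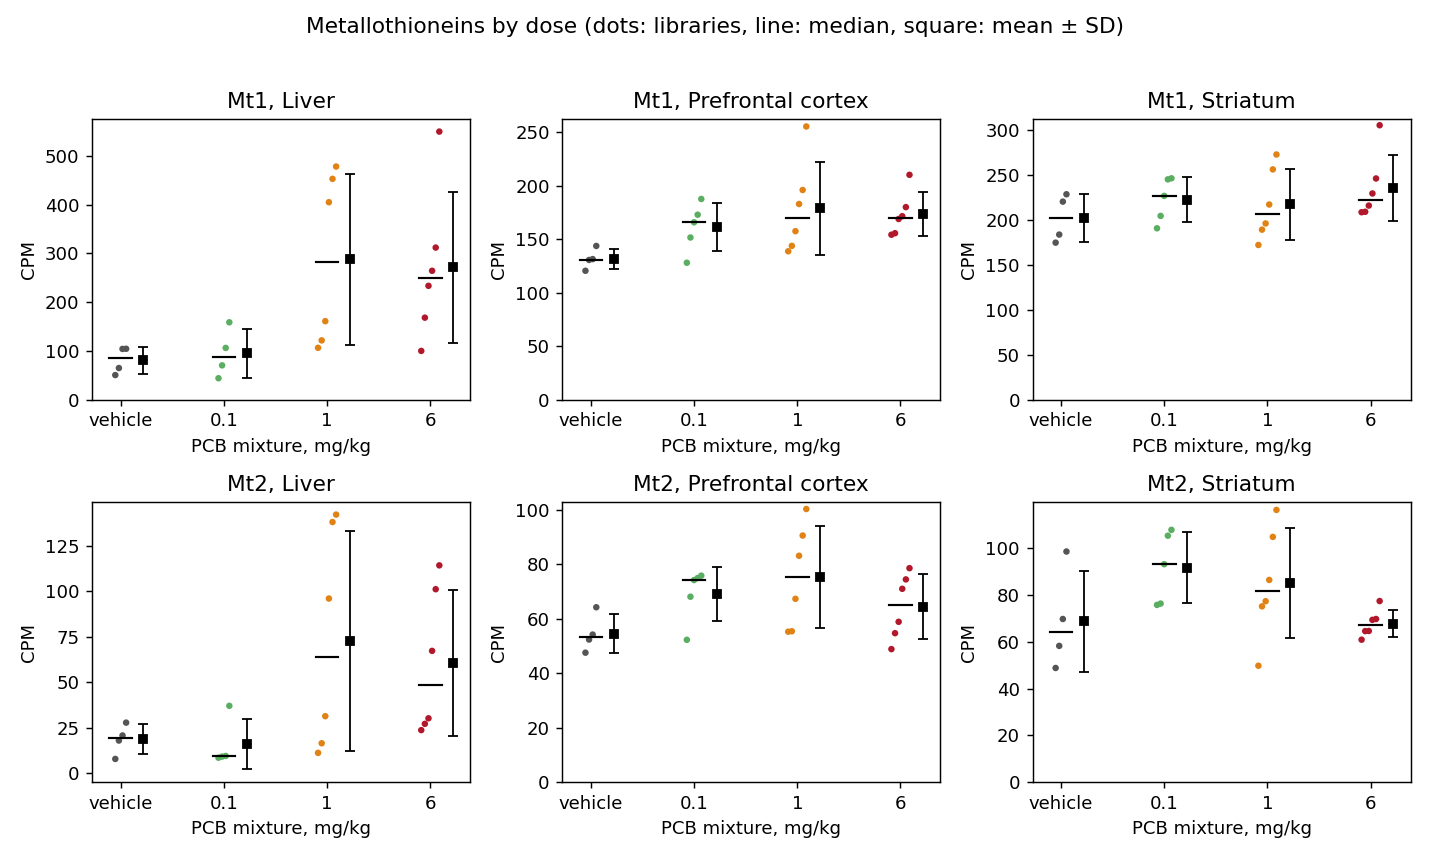
CPM of Mt1 (top) and Mt2 (bottom) in each tissue by dose group (linear axes from 0), with a dot for each library, a line at the median and a square with bars for mean ± SD. Liver Mt1 reaches 478 CPM at 1 mg/kg and 550 CPM at 6 mg/kg against 104 CPM or less in vehicle. Mt1 in the brain stays between 120 and 306 CPM, each tissue being scaled by itself.

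None of the 10 genes passed at a single dose against vehicle in any tissue by edgeR's quasi-likelihood test. In the liver, 2.8% of all tested genes passed at 6 mg/kg (1.8% as higher, 0.995% as lower), 0.0154% at 0.1 mg/kg and 0% at 1 mg/kg. The 363 genes at 6 mg/kg ran from 3 (without vehicle animal 4) to 1302 (without animal 56) when 1 library was left out. They were 13 when only vehicle and 6 mg/kg livers were fitted, and 0 with the Dbp and Arntl difference as a covariate. That difference did not overlap between vehicle and dosed livers. An unadjusted p under 0.05 was reached by 3 of the 10 at the top dose (24.2% of all genes), 2 at the middle dose (8.44%), 0 at the lowest (4.1%) and 3 for the trend (25.4%). In the prefrontal cortex 0% of all genes passed at each dose and 0.0202% for the trend. There the unadjusted counts of the 10, from the top dose down, were 2 (9.27% of all genes), 2 (8.29%) and 4 (6.43%), and 2 for the trend (9.79%). The count of 4 at 0.1 mg/kg became 1 without vehicle animal 3, 2 without any of animals 7, 24, 25, 28 and 29, and 7 without animal 23. In the striatum 0% of all genes passed at each dose and for the trend. The unadjusted counts there, in the same order, were 1 (15.7% of all genes), 0 (7.36%) and 4 (2.53%), and 1 for the trend (13.1%). Here the count of 4 at 0.1 mg/kg became 1 without animal 3, 8 or 29 and 2 without animal 24. DESeq2's Wald test called 1 of the 10 in the liver at 6 mg/kg, Mt1 (adjusted p = 0.0141), where it called 1138 genes in all against 363 by edgeR. It called 0 of the 10 at the other single doses in any tissue. At 0.1 mg/kg the median log2 difference of the 10 genes was 0.32 for prefrontal cortex and 0.26 for striatum, against 0.01 and 0.00 over all genes. There 7 and 8 of the 10 were positive, against 51.9% and 49.2% of all genes. In the liver that median was 0.00, with 5 of the 10 positive against 49.8% of all genes. The medians at 6 mg/kg were -0.04 for liver, -0.01 for prefrontal cortex and -0.17 for striatum.

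**Figure D3:**
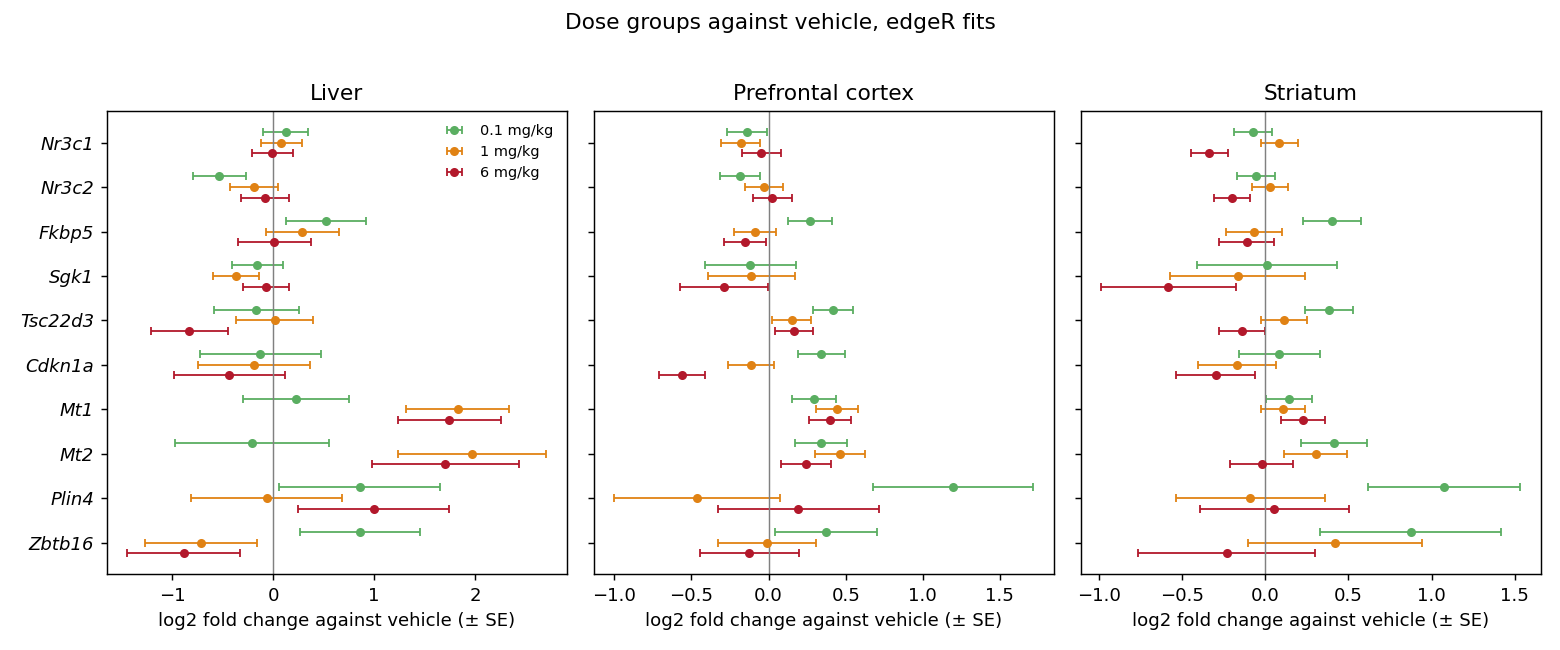
Log2 fold change against vehicle from the edgeR fits, with bars of 1 SE, for each gene at 0.1 mg/kg (green), 1 mg/kg (orange) and 6 mg/kg (red) in the 3 tissues, whose axes differ in range. Mt1 and Mt2 stand at 1.71 to 1.96 in the liver at 1 and 6 mg/kg, Cdkn1a at -0.56 in the prefrontal cortex at 6 mg/kg, and Plin4 at 1.19 and 1.07 in the brain at 0.1 mg/kg.

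Whether 6 mg/kg acted differently in 2 tissues was tested as an interaction, and 0 of the 10 genes passed in any pair by edgeR's quasi-likelihood test. Over all genes 0% passed between the brain regions, 0.899% when liver was set against prefrontal cortex, and 0.0277% when it was set against striatum. The 129 genes behind the 0.899% ran from 2 (without vehicle animal 3) to 762 (without animal 55) when 1 mouse was left out. The liver effect minus the prefrontal effect on the log2 scale was 1.33 for Mt1 (SE 0.429, edgeR adjusted p = 0.107) and 1.46 for Mt2 (SE 0.536, adjusted p = 0.146), and for Tsc22d3 it was -1.01 (SE 0.364, adjusted p = 0.141). Those were the 3 that reached an unadjusted p under 0.05 in this pair, where 20% of all genes did, and DESeq2's Wald test called Mt1 (adjusted p = 0.0376) and 928 genes in all, against 129 by edgeR. Without animal 53 Tsc22d3 passed at -1.30 (adjusted p = 0.0293), and without animal 56 Mt1 passed at 1.52 (adjusted p = 0.0362). The liver effect minus the striatal effect on Mt1 was 1.51 (SE 0.440, adjusted p = 0.190) and on Mt2 it was 1.72 (SE 0.546, adjusted p = 0.214), the 2 that reached an unadjusted p under 0.05, where 14.3% of all genes did. Between striatum and prefrontal cortex 0 of the 10 reached it, where 6.43% did. DESeq2 called none of the 10 in either of the last pairs.

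The same animal number appears in the titles of the tissues, and libraries with the same number were taken to come from the same mouse. Dose-group means were removed from log2 CPM, and the deviations of a gene were correlated over the 21 mice with both brain regions and over the 20 with liver and each region. Sgk1 deviations in the striatum followed those in the prefrontal cortex, with Pearson r = 0.889 (permutation p = 1e-05, the smallest that 100000 draws can give, adjusted p = 0.0183 over 14617 genes). Spearman's rho was 0.816 (permutation p = 0.00019, adjusted p = 0.0958), which did not pass. Leaving out animals 53 and 24, the farthest from the median, r was 0.824. Within the 6 mice at 1 mg/kg r was 0.905, and within the 6 at 6 mg/kg it was 0.937. Sgk1 ranked 8 of 14617 genes by r, and 9 genes passed in all, or 0.0616%. The others were the haemoglobin genes Hbb-b1, Hbb-bt and Hba-a1, the glucocorticoid-induced Hif3a, and Capn11, Ide, Tmem181b-ps and Commd8.

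With 3 haemoglobin genes among the 9, red cell marker levels are set beside Sgk1 for the mice that had the most of it. Red cell markers of animal 53 summed to 18.3 CPM in its prefrontal cortex and 60.1 CPM in its striatum, in groups that ranged from 12.14 to 79.99 and from 43.8 to 139 CPM. For animal 24 they were 196 and 111 CPM, in groups that reached 196 and 199 CPM. Oligodendrocytes are known to express Sgk1, and their markers summed to 3667 CPM in the prefrontal cortex of animal 53 in a group of 3115 to 3667 CPM, and to 7095 CPM in its striatum in a group of 6688 to 9379 CPM. Animal 24 was at 3283 and 6999 CPM, in groups that reached 3746 and 7216 CPM. So animal 24 had the most red cell markers of its group in the prefrontal cortex, and animal 53 the most oligodendrocyte markers there. The prefrontal punch of animal 53 also stood apart in other lists. Its cortical projection neuron markers summed to 1521 CPM, the lowest of the 21 libraries, against 1836 to 2216 in the other mice at 6 mg/kg. Its choroid plexus markers summed to 20.72 CPM against 5.45 to 11.57, and its striatal projection neuron markers to 3432 CPM against 1801 to 3195. In its striatum, striatal projection neuron markers summed to 4313 CPM against 5455 to 7587 in the others. The part of any of these cell types in the Sgk1 values was not tested.

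The other members followed the mouse less closely. Between the brain regions r was 0.631 for Plin4 (permutation p = 0.00594, rho = 0.622), 0.602 for Tsc22d3 (p = 0.00515, rho = 0.594), 0.549 for Zbtb16 (rho = 0.497), 0.482 for Mt2 (rho = 0.401), 0.444 for Cdkn1a (rho = 0.446) and 0.436 for Mt1 (rho = 0.354) by permutation of mice, none passing after adjustment (adjusted p of 0.396 or more). Without the farthest 2 mice r was 0.461 for Plin4, 0.522 for Tsc22d3, 0.508 for Zbtb16, 0.308 for Mt2 and 0.576 for Cdkn1a. Counting Sgk1, 6 of the 10 genes had a positive r at an unadjusted permutation p under 0.05, where 7.63% of all genes did. For Fkbp5 r was 0.374 (rho = 0.309), for Nr3c2 0.380 (rho = 0.553) and for Nr3c1 0.101 (rho = 0.127), and without the farthest 2 mice r was 0.147, 0.362 and 0.0929. For Mt1 r was 0.414 without them. The median r of the 10 was 0.463 against 0.146 over all genes. Sgk1 in the liver did not follow the brain, with r of -0.235 to the prefrontal cortex and -0.189 to the striatum (permutation p = 0.336 and 0.430).

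With the liver, 0 of the 10 passed by the permutation test in either pair, and 0 passed with rho. Over all genes, livers followed their own number hardly more than other numbers of the group. Their mean r was 0.00654 to the prefrontal cortex and 0.00517 to the striatum, against -0.00171 and -0.00208. The liver pairing thus has little support beyond the shared numbers, which also limits the values of Sgk1 above. At an unadjusted permutation p under 0.05 the positive ones were Zbtb16 with the prefrontal cortex (r = 0.540, p = 0.0343, adjusted p = 0.850), where 2.93% of all genes reached that level. Its rho was 0.486, and r was 0.414 without animals 46 and 45, the farthest from the median. With the striatum they were Tsc22d3 (r = 0.572, permutation p = 0.0123, adjusted p = 0.970) and Zbtb16 (r = 0.548, permutation p = 0.0256, adjusted p = 0.970), where 2.49% did. The rank correlation (rho) was 0.594 for Tsc22d3 and 0.549 for Zbtb16, and without the farthest pair of animals r was 0.511 and 0.569. Median r of the 10 was 0.285 for liver and prefrontal cortex and 0.103 for liver and striatum, against 0.00 and -0.01 over all genes. Over the 8 response genes in 3 tissues, 24 values for a mouse with all 3, animal 53 was the highest of its dose group in 15, animal 29 in 13, animal 4 in 12 and animal 50 in 9, while animal 56 was so in 0. Dose groups differed in size, and a mouse of a smaller group is more often the highest by chance. The values of a mouse also share its libraries, so these counts are not comparable between groups. Animal 24 has no liver library and was the highest in 4 of its 16 values. These animals were singled out after their values were seen.

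**Figure D4:**
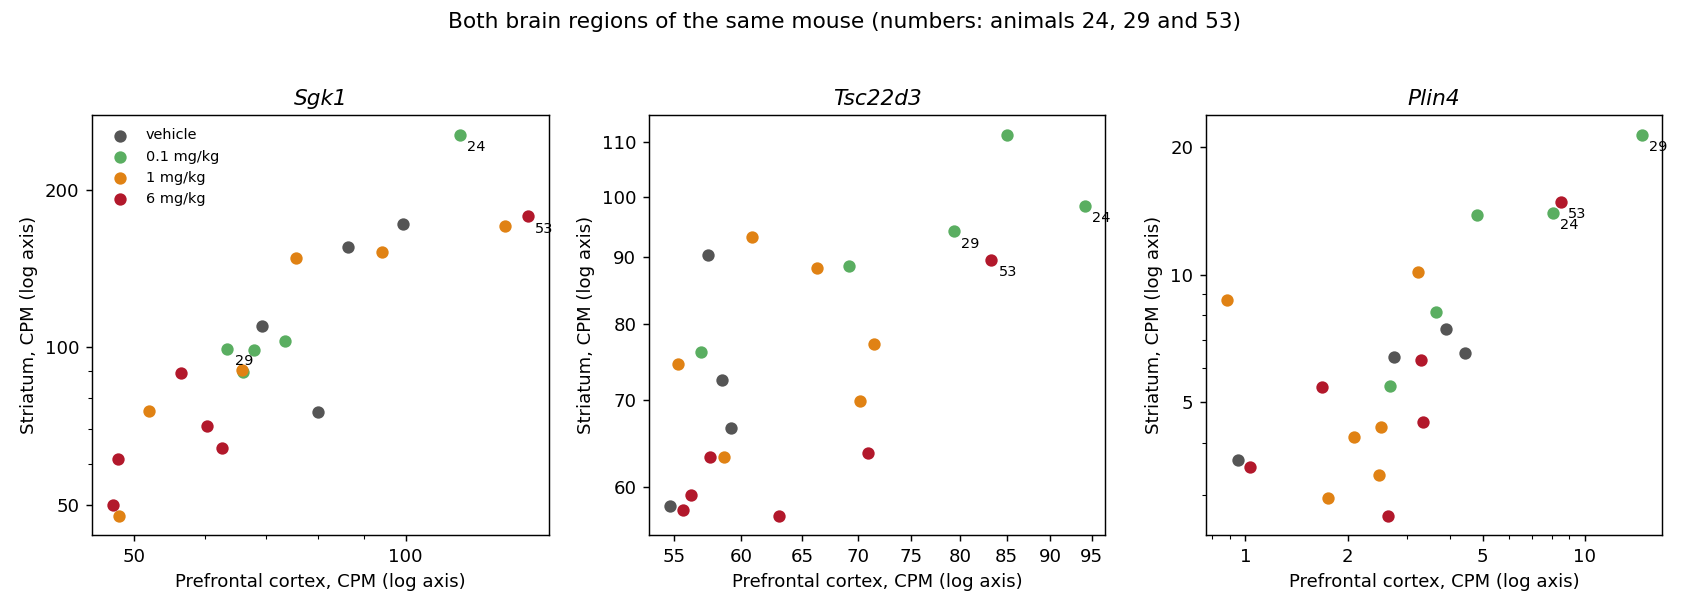
CPM in the striatum against CPM in the prefrontal cortex of the same mouse (log axes) for Sgk1, Tsc22d3 and Plin4, with a point for each of 21 mice coloured by dose and animals 24, 29 and 53 numbered. Sgk1 points lie along a diagonal in each dose group, with animals 24 and 53 at the upper end, and Tsc22d3 and Plin4 points scatter more.

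**Figure D5:**
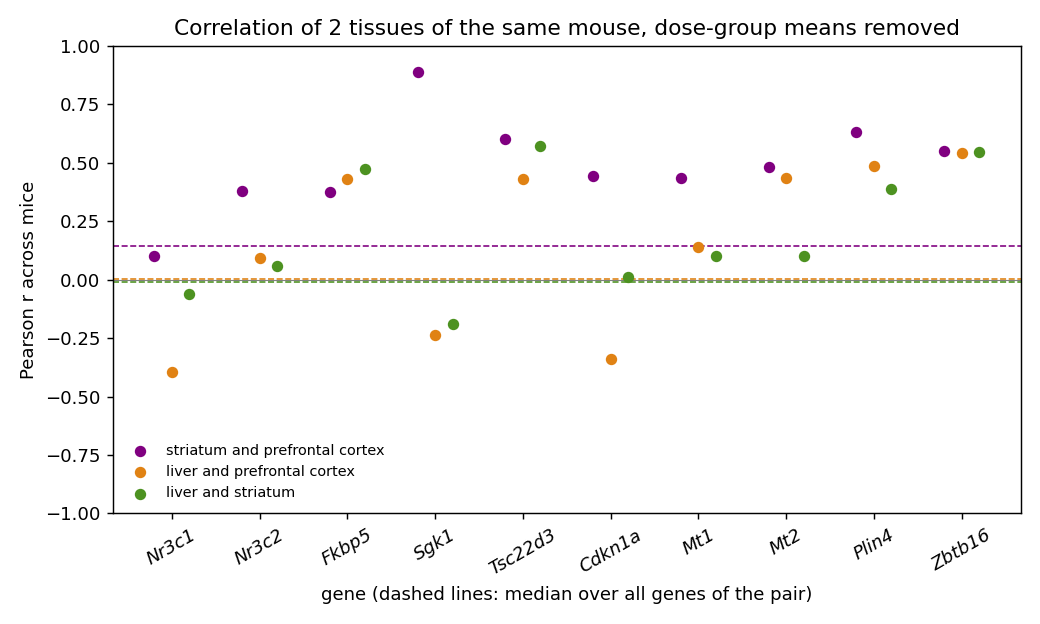
Pearson r of deviations from dose-group means between 2 tissues of the same mouse, for each gene and pair of tissues (21 or 20 mice), with dashed lines at the median of all genes of the pair. Sgk1 is at 0.889 between the brain regions and below 0 with the liver, while Zbtb16 is at 0.540 or more in each pair.

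Genes with the most similar pattern were listed for Fkbp5 and Tsc22d3 by r of the same deviations within a tissue, as a description over libraries that share depth and handling. For Fkbp5 they were St3gal5, Zbtb8a and Baiap2l1 in the liver (r = 0.871, 0.829 and 0.826). They were Wipf3, Gm11201 and Pkp2 in the prefrontal cortex (0.804, 0.769 and 0.749) and Wipf3, Ankk1 and Kazn in the striatum (0.867, 0.824 and 0.820). Wipf3, an actin-regulating protein of the WIP family, was thus first in both brain regions. For Tsc22d3 they were Banf1, Rsl1d1 and Dnlz in the liver (0.829, 0.827 and 0.816). Prefrontal ones included Slc26a11 and Rasd1, a small GTPase named for its induction by dexamethasone (0.766 and 0.760), and the striatal ones were Atp10b, Ide and Plin4 (0.773, 0.734 and 0.717). Among the 10 themselves, Mt2 was the closest of all genes to Mt1 in the liver (0.819) and the striatum (0.795). In the prefrontal cortex Mt2 ranked 124 of 14837 for Mt1 (0.789). No offset for transcript GC content or length entered these r values. Zbtb16 ranked 8 for Fkbp5 in the liver (0.785), and Plin4 ranked 4 for Fkbp5 in the prefrontal cortex (0.740). Other pairs ranged from positive to opposed. Sgk1 and Tsc22d3 were at 0.65 over prefrontal cortices, 0.55 over striata and 0.11 over livers. Fkbp5 and Tsc22d3 had an r of 0.08 over livers, 0.23 over prefrontal cortices and -0.09 over striata. Nr3c1 was at -0.82 to Mt1 in the prefrontal cortex (rank 14755 of 14837) and at -0.67 to Tsc22d3 in the liver. These pairs among the 10 were chosen after values were seen.

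Other genes of the pathway were counted in lists. Of 30 further glucocorticoid-induced genes tested in the liver at 6 mg/kg, 0 were higher (1.8% of all genes) and 1 was lower (0.995%), Pdk4, an inhibitor of pyruvate dehydrogenase, at a log2 difference of -1.41 (SE 0.337, edgeR adjusted p = 0.0320). Igfbp1, an insulin-like growth factor binding protein, was at -2.45 (SE 0.766, adjusted p = 0.0799), Nfkbia at -0.50 and Map3k6 at 1.57, none passing. The median of the 30 was -0.19 against 0.02 for all genes. Of 6 genes of corticosteroid supply and metabolism 0 passed. The smallest p there was that of Hsd11b1, the enzyme that regenerates active glucocorticoid, at -0.55 (SE 0.176, adjusted p = 0.0811), with a mean of 907 CPM in vehicle and 621 CPM at 6 mg/kg. Of 7 genes of zinc sensing and transport 0 passed in the liver, and Mtf1, the transcription factor that binds metal response elements, was at -0.31 (SE 0.171, adjusted p = 0.260). Of 14 p53 targets 1 was higher, the peptide transporter Tap1, at 0.74 (SE 0.199, adjusted p = 0.0467). The 3 other perilipins tested were at -0.31 to -0.39, none passing. Of 15 clock genes 5 were higher and 1 was lower. All of these liver calls were lost with the Dbp and Arntl difference as a covariate, where 0 of all genes passed by edgeR in place of 363, and 3 genes in all passed without vehicle animal 4. Dbp is itself among the called clock genes and part of that covariate. The difference also did not overlap between vehicle and dosed livers, so the loss of calls with it was partly fixed in advance.

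In the brain, no gene of these lists passed at 6 mg/kg by edgeR's quasi-likelihood test. In the prefrontal cortex 6 of 27 further glucocorticoid-induced genes had an unadjusted p under 0.05, where 9.27% of all genes did. The corepressor Tle3 was at -0.45 (SE 0.102, adjusted p = 0.202), the clock gene Per1 at -0.68 (SE 0.213, adjusted p = 0.344), the mTOR inhibitor Ddit4 at -0.56 and Arl4d at -0.57, with a median of -0.15 for the list against 0.00 for all genes. In the striatum 7 of 27 did, where 15.7% of all genes did, with Bcl6 at -0.59 and Dusp1, a MAP kinase phosphatase, at -0.47, and Ndrg2 and Sdc4 at 0.30 and 0.32. Hsd11b1 was at 0.60 (adjusted p = 0.312) in prefrontal cortex and at 0.88 (adjusted p = 0.267) in striatum. Across the brain regions of the same mouse, 25 of the 27 further glucocorticoid-induced genes had a positive r, against 71.9% of all genes, with a median of 0.429. Hif3a passed (r = 0.917), and Nfkbia at 0.828 and Per1 at 0.764 did not. All 19 chaperones and coregulators had a positive r there, with a median of 0.438 and none passing.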

How the data were processed

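RNA of 62 libraries was sequenced after poly(A) capture or rRNA removal, per the labels' protocols, which do not say which. The authors deposited 1 table of raw counts per gene and tissue. Per the submitters' processing notes FastQC, HISAT2 and mm10 were used. The counting tool, annotation and strand setting are not given in the sources used here. Each column named 1 library, and 0 columns were left without a sample.

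All counts in a tissue were fitted with edgeR 4.0.16 (R 4.3.3; filterByExpr, TMM scaling, robust quasi-likelihood test, the 4 dose groups as 1 factor, or the dose rank as a slope). Calls needed a Benjamini-Hochberg adjusted p under 0.05 over all tested genes, 12968 in liver, 14838 in prefrontal cortex and 15118 in striatum. The SE is the log2 difference divided by the root of F. Per-library CPM is TMM-scaled within a tissue. Tissue contrasts and interactions used a joint fit of both tissues. Same-mouse correlations used log2 CPM (prior count 2), with 100000 permutations within dose groups. Alternatives were DESeq2 1.42.0, median-ratio factors, other filters, sva 3.50.0, a clock covariate, other references, leaving out libraries and, added after seeing the data, offsets for GC content or length (GENCODE vM21).

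The members and lists were chosen with earlier results of these data known. All 10 members are named, up to 4 genes with the smallest p per list and tissue, and the 3 genes most like Fkbp5 and Tsc22d3. A few results under this rule are not reported here. The scripts were tested on simulated data. Libraries of a group differed beyond sampling noise (chi-square per degree of freedom of 2.99 or more). No source states that a number marks 1 mouse. Deviations of same-numbered brain libraries correlated at a mean r of 0.113, against -0.0233 for other mice of the group, but not every pair exceeded 0.1 (lowest -0.0906). For the liver the mean r was 0.00654 to the prefrontal cortex and 0.00517 to the striatum, against -0.00171 and -0.00208 for other mice.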

Additional observations from a re-analysis of the deposited data

Results flagged for a closer look

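In 16 of the 120 groups of 4 to 6 libraries, taken over the 10 genes, 1 library lay farther from the others than Dixon's 95% limit allows. Chance flags about 1 in 20 independent groups of normally distributed values, or about 6 here. These groups share libraries between genes and hold CPM without a log, so 16 against 6 does not measure an excess. Animal 53, at 6 mg/kg, accounted for 8 of the 16, each time as the highest of its 6 mice. In its liver, Tsc22d3 was at 157.1 CPM against 48.5 to 72.7 in the other 5 and Zbtb16 at 8.282 CPM against 1.65 to 3.15. In its prefrontal cortex, Sgk1 was at 136.6 CPM against 47.4 to 62.6 and Plin4 at 8.512 CPM against 1.03 to 3.35. In its striatum, Sgk1 was at 177.8 CPM against 50.05 to 89.2, Tsc22d3 at 89.45 against 57.05 to 63.8, Plin4 at 14.89 against 2.68 to 6.29 and Zbtb16 at 25.19 against 2.65 to 8.74.

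Animal 24, at 0.1 mg/kg, had the highest Sgk1 of its group in both brain regions, 114.9 CPM against 63.5 to 73.5 in the prefrontal cortex and 254.7 CPM against 89.6 to 103 in the striatum. The other libraries set apart were of 6 different mice. In the liver, Nr3c1 was at 69.81 CPM in animal 41 at 1 mg/kg against 40.1 to 49.4, Cdkn1a at 2.929 CPM in animal 58 at 6 mg/kg against 1.52 to 1.94, Mt2 at 37.02 CPM in animal 29 at 0.1 mg/kg against 8.51 to 9.48, and Plin4 at 7.459 CPM in vehicle animal 4 against 2.74 to 3.20. In the striatum, Nr3c1 was lowest in animal 54 at 6 mg/kg, 49.01 CPM against 72.2 to 82.5, and Fkbp5 was highest in vehicle animal 7, 49.59 CPM against 40.0 to 41.2.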

How the results depend on the processing

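Counts below are of the 10 genes that passed. With DESeq2 the count was 1 in liver at 6 mg/kg (Mt1, 0 in edgeR), 2 for the liver trend (Mt1 and Mt2, 1 in edgeR), 1 for the prefrontal trend (Cdkn1a, 0 in edgeR) and 1 for the interaction of liver and prefrontal cortex (Mt1, 0 in edgeR). Over all genes DESeq2 called 1138, 1228, 65 and 928 in these, against 363, 624, 3 and 129 by edgeR. The clock covariate, the Dbp and Arntl difference, did not overlap between vehicle and dosed livers. Fits with it therefore do not separate it cleanly from dosing. The liver trend count fell to 0 with it (3 genes in all in place of 624) and to 0 with a slope over mg/kg, where Mt1 was at 0.17 per mg/kg (edgeR adjusted p = 0.245). That slope gave 1 in the prefrontal cortex (Cdkn1a, -0.12, adjusted p = 0.0440) and 1 in the striatum (Nr3c1, -0.06, adjusted p = 0.0240), each 0 by dose rank, where 6 and 1862 genes in all passed in place of 3 and 0. At 6 mg/kg the prefrontal count was 1 with 1 surrogate variable (Cdkn1a, -0.60, adjusted p = 0.0480) and 1 against 0.1 mg/kg (Cdkn1a), and the striatal count was 1 against 0.1 mg/kg (Tsc22d3, -0.53, adjusted p = 0.0360), with 86, 16 and 440 genes in all in these fits, where edgeR against vehicle without that variable called 0. Vehicle libraries alone gave 3 for striatum against prefrontal cortex in place of 7 (3229 genes in all in place of 8112), and turned the difference of liver and striatum to -0.32 for Mt1 and -0.89 for Mt2. Spearman's rho gave 0 same-mouse genes in place of 1. The cause of these differences was not tested.

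Leaving out 1 library at a time gave 0 to 1 at 6 mg/kg in liver (1 without animal 56, Mt1 at 1.92, adjusted p = 0.0261), 0 to 1 for the liver trend and 0 to 1 for the interaction of liver and prefrontal cortex. It gave 0 throughout for each other dose contrast, trend and interaction. Over all genes, the liver count at 6 mg/kg ran from 3 (without vehicle animal 4) to 1302 in those fits, around 363. It was 13 with only vehicle and 6 mg/kg fitted and 0 with the clock covariate. With the animal number as a block, the pairing being a hint from shared numbers only, the count was 8 for each pair of tissues in place of 7, 8 and 8 (8212, 12647 and 12716 genes in all in place of 8112, 12777 and 12857), and 0 for each interaction. Each animal's brain libraries correlated best with its own number in 11 of 21 cases. Livers did so in 4 of 20 cases with the prefrontal cortex and 8 of 20 with the striatum. Cdkn1a, Plin4 and Zbtb16, with few reads in the liver, had SEs of 0.552, 0.747 and 0.556 there at 6 mg/kg. Mt1 and Mt2, with more reads, had SEs of 0.508 and 0.726.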

Other observations

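In the brain, the other lists of the pathway gave no call at 6 mg/kg. In the liver at that dose 5 of 15 clock genes were higher and 1 was lower, as given above, where 2.8% of all genes passed. In the striatum at 6 mg/kg, where 15.7% of all genes had an unadjusted p under 0.05, 6 of 19 chaperones and coregulators, 5 of 13 p53 targets, 4 of 15 clock genes, 2 of 8 genes of corticosteroid supply, 1 of 7 zinc genes and 0 of 3 perilipins did, and 0 of them passed by edgeR. Among coregulators, the corepressors Nrip1 and Ncor1 were at -0.48 and -0.35 on the log2 scale and the coactivators Crebbp and Ncoa1 at -0.35 and -0.32. The median of the 19 was -0.08. Prefrontal counts, against 9.27% of all genes, were 1 of 19, 2 of 13, 1 of 15, 1 of 8, 2 of 6 and 0 of 2 for the same lists, again with 0 passing. The zinc sensor Mtf1 was at -0.23 there. Of the p53 targets 3 of 13 were positive there (median -0.09), and the 2 with an unadjusted p under 0.05 were Ccng1 at 0.41 and Plk2 at -0.23.

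Between the brain regions of the same mouse, 14 of 15 clock genes had a positive r (median 0.312), as did 9 of 13 p53 targets (median 0.164), 6 of 8 genes of corticosteroid supply (median 0.187), 4 of 6 zinc genes (median 0.108) and 2 of 2 perilipins (median 0.246). Over all genes 71.9% were positive, with a median of 0.146, so the p53, corticosteroid and zinc counts were near that share. None of the genes in these lists passed by the permutation test, and the p53 target Btg2 had an r of 0.78.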
